A study of Mus musculus with 18 samples.

Results

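At day 8 of a conversion of mouse primed stem cells towards naive pluripotency, 910 genes stood at least 2-fold above or at least 2-fold below every other stage and reference line of the study. The set was defined by the expression values themselves. The log2 difference between the day 8 libraries and each of the 5 other groups was estimated from the deposited counts, and a gene was kept when all 5 differences were at least 1 or all were at most -1. Of 17545 genes tested among 25239 symbols, 776 were higher at day 8 than in all 5 other groups, which is 4.42% of the genes tested, and 134 were lower, which is 0.764%. The count of lower genes rested partly on 1 library and became 229 without D8 replicate 3. It became 89 with counts divided by 4 and rounded, an alternative run because low counts in the table bunched at 4 and 8. Because the values chose the genes, differences of single members between day 8 and another group are given below as descriptions, without tests. Counts of calls at day 8 that include members are likewise descriptions and no evidence.

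Each of the 6 groups had 3 libraries. D8 cells were sampled at day 8, D5 cells at day 5 and D3 cells at day 3, and the labels call all of them transient. EpiSC, the primed stem cells, were day 0, rES were labelled as naive stem cells, and ESC were mouse embryonic stem cells. The tissue is given as mouse embryo for all groups, and the sources used here give no strain, genotype, sex, medium, inhibitor or feeder layer. Whether the 3 libraries of a group came from separate cultures is not stated either. A p-value below therefore reflects the scatter among these libraries, which may be technical.

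Primed stem cells resemble the epiblast after implantation and naive stem cells the epiblast before it. Trophoblast, the outer lineage of the embryo, forms the placenta. Within it, syncytiotrophoblast layers exchange nutrients and spongiotrophoblast and giant cells secrete hormones of the prolactin and pregnancy-specific glycoprotein families. Type I interferons induce a set of antiviral genes whose promoters often carry a short response element. Proliferating cells switch on genes of DNA synthesis in S phase and genes of the spindle and its checkpoint in mitosis.

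The libraries held 58.4 to 101.6 M counts (M for megacounts), with 65.0, 101.6 and 63.5 M at D8, and levels below are in CPM, that is counts scaled to a library total of 1 M, after TMM scaling. CPM is not divided by gene length, so levels are compared between groups and not between genes. Between 17662 and 18248 symbols had a count in the D8 libraries and between 15835 and 16810 in the other 15. Libraries of the same group correlated at 0.9907 or more. These are bulk libraries, in which fewer cells of a type and less RNA per cell cannot be told apart.

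The higher genes were mostly moderate in level and in difference. Their median D8 level was 2.78 CPM, 330 had a D8 mean of at least 5 CPM and 244 had one under 1 CPM. The median of the smallest of the 5 log2 differences was 1.54, with 226 genes at least 4-fold and 58 at least 8-fold above the nearest group. The median log2 difference over all tested genes was between 0.05 and 0.18 in the 5 comparisons. Of the 776 genes, 415 (53.5%) were also called in all 5 comparisons at an adjusted p under 0.05 by edgeR's quasi-likelihood test, against 6.69% of all tested genes. The 3 D8 libraries lay above all 15 others for 681 genes (87.8%), against 9.67% of all tested genes. Both shares follow from the choice of the genes and were read no further. Without the D8 libraries, 597 of the 776 passed the filter on low counts, and 15 had no count in any library other than D8.

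The 134 lower genes differed by less. The median of the smallest difference was -1.18, and 6 genes lay at least 4-fold below every other group. By the same test 102 (76.1%) were called in all 5 comparisons, against 7.15% of all tested genes. The D8 libraries lay below all 15 others for 90 (67.2%), against 6.97%. All 134 passed the filter without the D8 libraries. Among the lower genes 78 stood at 5 CPM or more in every other group.

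The threshold cut through a continuous range. Just inside it were Htatsf1 (248.8 CPM at D8 and 124 CPM at D5) and Usp29 (84.9 CPM at D8 and 42.3 CPM at D5). Just outside were Akap13, with 126 CPM at D8 and 63.2 CPM at D5, and B3gnt7, with 332 CPM at D8 and 167 CPM at D5. On the lower side Lbr (119 CPM at D8 and 239 CPM in rES) and Nek2 (20.9 CPM at D8 and 42.0 CPM at D5) were inside. Pkn3 (2.93 CPM at D8 and 5.91 CPM in ESC) and Bmyc (6.25 CPM at D8 and 12.4 CPM at D5) were outside.

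Day 5 was the group closest to day 8 for most of these genes. The highest of the 5 other groups was D5 for 533 of the 776 higher genes (68.7%), rES for 80, D3 for 75, EpiSC for 56 and ESC for 32. The lowest was D5 for 84 of the 134 lower genes (62.7%), rES for 25, ESC for 12, D3 for 10 and EpiSC for 3.

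**Figure D1:**
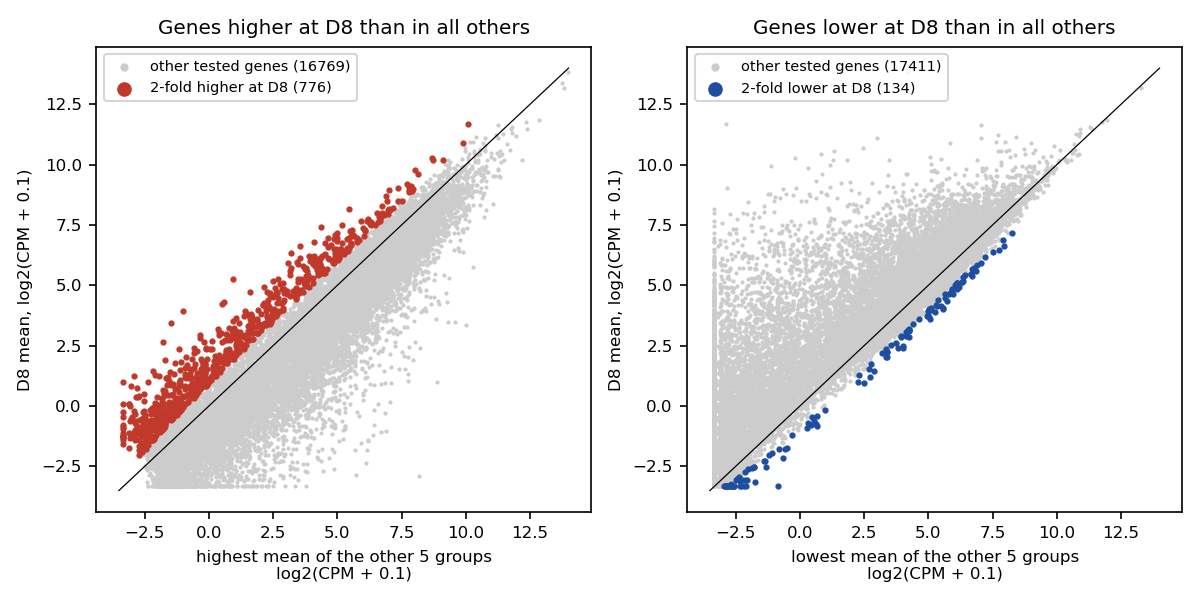
Mean level at D8 (vertical axis) against the highest mean of the 5 other groups for higher genes and the lowest for lower genes (horizontal axis), both as log2 of CPM plus 0.1, 1 point per tested gene. The 776 higher genes lie above the diagonal band of unselected genes and the 134 lower genes below it, with Gjb2 at the top.

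Genes of the placental exchange layer included the most abundant of the set by count. Gjb2 encodes connexin 26, the gap junction protein that couples the syncytiotrophoblast layers of the mouse placenta. It stood at 4037, 3515 and 2388 CPM in the D8 libraries and at 1059, 1101 and 1147 CPM in the D5 libraries. D3 libraries had 11.01 to 13.2 CPM and the other 9 libraries at most 5.96 CPM. The groups did not overlap, and D8 was 1.59 above D5 on the log2 scale. Syna, the syncytin that fuses trophoblast cells, was low at D5. It had 74.2, 54.1 and 56.1 CPM in D8 libraries, 9.16, 7.81 and 7.93 CPM in D5 libraries and at most 1.01 CPM elsewhere. Snap91, a clathrin assembly protein, averaged 58.3 ± 6.02 CPM at D8 and 16.3 ± 1.37 CPM at D5 (SD, n = 3 each). These 3 were the members among 17 syncytiotrophoblast genes tested. Other genes of that list were also high at D5. The fusion gene Synb averaged 206 ± 46.8 CPM at D8 and 141 ± 15.6 CPM at D5. Gcm1, the transcription factor of this layer, averaged 41.7 ± 6.46 CPM at D8 and 101 ± 12.95 CPM at D5 (SD, n = 3 each).

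Members from the list of spongiotrophoblast and giant cell genes, hormone genes among them, were at low level. Of 33 genes listed, 23 were too low to be tested, and 6 of the 10 tested were in the higher set. Summed over the tested genes, the list came to 221, 217 and 186 CPM in D8 libraries and 220 to 229 CPM in D5 libraries. Pcdh12, a protocadherin of glycogen trophoblast, had 14.1, 10.1 and 11.99 CPM in D8 libraries and 3.19, 3.02 and 4.27 CPM in D5 libraries, with D3 at 2.97 to 4.06 CPM. The pregnancy-specific glycoprotein gene Psg19 had 7.55, 6.65 and 6.33 CPM at D8 and 3.43, 2.68 and 3.49 CPM at D5. Prl3b1, which encodes placental lactogen II, had 1.22, 2.31 and 1.46 CPM in D8 libraries and counts in only 1 other library, at 0.0675 CPM in D5 replicate 3. Ctsr, a cathepsin of the placental cluster, had 1.16, 1.08 and 0.676 CPM at D8 and 0.049 CPM in D5 replicate 2 alone among the other libraries. All of these genes were therefore near the detection limit outside D8, or, for Pcdh12 and Psg19, low at D5. When whole families were looked at after the values had been seen, 4 of 13 Psg genes in the table and 3 of 26 prolactin paralogs were in the set. Only 6 and 3 of them passed the filter on low counts. Genes counted almost only at D8 pass it through D8, so nothing is read from the share of tested genes. Members of both families are near-identical in sequence, so their reads may have been divided uncertainly.

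The factors that define trophoblast stem cells were not part of the set. None of the 18 on that list qualified. Cdx2 stood at 1.61, 1.99 and 1.37 CPM in D8 libraries, against 28.8 to 33.3 CPM in D3 libraries and 1.08 to 2.41 CPM in D5 libraries. Krt7, a trophoblast keratin, averaged 403 ± 66.2 CPM at D8, 407 ± 19.9 CPM at D5 and 271 ± 36.1 CPM at D3, and at most 1.13 CPM in the means of EpiSC, rES and ESC. Krt7 thus marked all 3 transient groups rather than D8 alone.

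**Figure D2:**
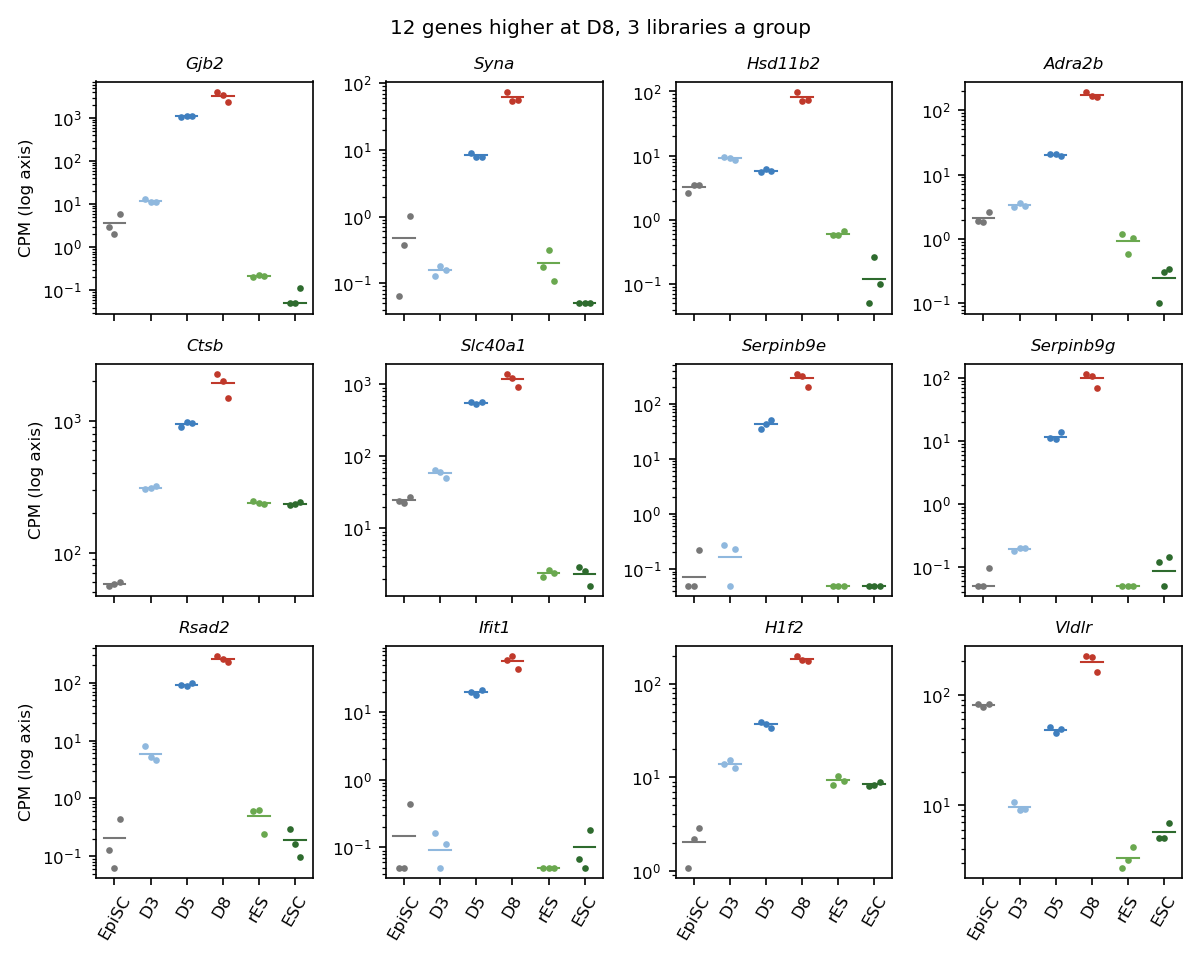
Level of 12 higher genes in each library, with groups in the order EpiSC, D3, D5, D8, rES and ESC on the horizontal axis and CPM on a log vertical axis. Points are libraries, lines are group means, and values under 0.05 CPM are drawn at 0.05; in every panel the 3 D8 libraries are the highest.

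Enzymes that handle steroids, retinoids and prostaglandins had some of the largest differences. Hsd11b2, which inactivates glucocorticoids and guards the fetus in the placenta, had 97.8, 71.7 and 72.8 CPM in the D8 libraries. It had 5.65, 6.09 and 5.73 CPM in D5 libraries and 9.43, 9.15 and 8.51 CPM in D3 libraries, so D3 was its nearest group. The level was 3.55 CPM or less in all EpiSC, rES and ESC libraries. Hsd17b2, which inactivates estradiol, averaged 5.21 ± 0.837 CPM at D8 and 0.564 ± 0.0844 CPM at D5. Hpgds, a prostaglandin D2 synthase, averaged 7.04 ± 1.97 CPM at D8 and 0.698 ± 0.246 CPM at D5. Cyp11a1 catalyses the first step of steroid synthesis and stood at 30.6, 29.5 and 21.4 CPM at D8 and 9.54, 9.10 and 10.02 CPM at D5, with 3.46 to 5.20 CPM in the D3, rES and ESC groups' libraries. Cyp17a1, which acts later in that pathway, averaged 1.77 ± 0.225 CPM at D8 and 0.799 ± 0.344 CPM at D5 (SD, n = 3 each). Stra6, the cell surface receptor for retinol uptake, averaged 51.3 ± 11.4 CPM at D8, 9.52 ± 1.03 CPM at D5 and 13.4 ± 1.63 CPM at D3. Abcb1a, a drug efflux pump, averaged 512 ± 91.7 CPM at D8 and 248 ± 11.8 CPM at D5. Of 27 tested genes on the list of steroid, retinoid and xenobiotic metabolism 4 were in the set, Abcb1a, Stra6, Cyp11a1 and Cyp17a1. On that list 16 genes were called higher and 8 lower at D8 than at D3 (35.6% and 31.9% of all tested genes). Against D5 10 were higher and 3 lower (25.1% and 22%). Hsd11b2, Hsd17b2 and Hpgds were not on that list. Adra2b, the alpha 2B adrenergic receptor, was also outside it and had one of the 15 largest differences. It had 190.4, 165 and 157 CPM in D8 libraries, 20.6, 20.9 and 19.7 CPM in D5 libraries and at most 3.59 CPM in the other 12.

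Serine protease inhibitors of the Serpinb9 and Serpinb6 branch had the highest share of members among the lists. Serpinb9 is an inhibitor of granzyme B, and mice carry a cluster of related genes. Of 11 tested genes on that list 7 were in the higher set. Serpinb9e had 346, 317 and 206 CPM in the D8 libraries, 35.7, 44.0 and 51.5 CPM in the D5 libraries and at most 0.277 CPM in the other 12. Serpinb9g had 115, 109 and 70.5 CPM in D8 libraries and 10.9, 10.5 and 13.7 CPM in D5 libraries. Serpinb9f averaged 113 ± 29.1 CPM at D8 and 17 ± 1.05 CPM at D5, and Serpinb6b averaged 62.7 ± 12.8 CPM at D8 and 28.4 ± 3.37 CPM at D5 (SD, n = 3 each). In each of these the D8 libraries were the highest 3 of 18, and D8 replicate 3 was the lowest of the 3. The cluster's founding member did not follow: Serpinb9 averaged 49.4 ± 10.6 CPM at D8 and 58.1 ± 4.12 CPM at D5. Serpinb9b averaged 398 ± 71.6 CPM at D8 and 373 ± 8.39 CPM at D5.

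These serpin genes are neighbours. In the GENCODE vM21 annotation of GRCm38, the segment chr13:32881434-33905708 held 12 tested genes, of which 11 were Serpinb genes and 9 were in the higher set. They included Serpinb1b and Serpinb1c, which averaged 2.58 ± 0.717 and 14.02 ± 1.26 CPM at D8 and 1.13 ± 0.202 and 3.06 ± 0.522 CPM at D5. Serpinb9h had no position in that annotation. The segment was chosen after the members were known, and paralogs this alike may share reads.

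Interferon-stimulated genes formed the largest of the listed groups in the set. Of 29 tested, 14 were members, and 23 of the 29 were called higher at D8 than at D5, against 25.1% of all tested genes. By the same test 28 of the 29 were higher than in EpiSC (42.4% of all tested genes), 27 than at D3 (35.6%), 27 than in rES (38.4%) and 26 than in ESC (38.8%). A single gene was lower than at D3, and 2 were lower than in rES and 2 lower than in ESC. These tallies include the 14 members, chosen on the same differences, so they describe the list and are no separate evidence. Rsad2, the antiviral enzyme viperin, had 282, 259 and 224 CPM in D8 libraries, 90.1, 89.1 and 98.0 CPM in D5 libraries, 4.56 to 7.99 CPM in D3 libraries and at most 0.627 CPM in the other 9. Ifit1, which binds foreign RNA caps, had 59.2, 66.8 and 43.6 CPM at D8 and 19.8, 18.1 and 21.4 CPM at D5, and at most 0.436 CPM elsewhere. Its neighbour Ifit3 had 27.4, 29.9 and 20.1 CPM at D8 and 5.15, 4.36 and 5.89 CPM at D5, and at most 0.198 CPM elsewhere. The D8 libraries were the highest for all 3 genes. Bst2, the tetherin that holds budding viruses at the membrane, averaged 471 ± 60.7 CPM at D8, 223 ± 6.396 CPM at D5 and 91.2 ± 3.96 CPM in EpiSC. The guanylate-binding GTPase gene Gbp3 averaged 82.2 ± 14.3 CPM at D8 and 35.3 ± 1.92 CPM at D5, and Ifi27 averaged 69.7 ± 14.2 CPM at D8 and 24.9 ± 1.04 CPM at D5 (SD, n = 3 each). Irf7, the transcription factor that amplifies interferon production, averaged 65.5 ± 6.78 CPM at D8 and 28.7 ± 2.61 CPM at D5.

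Other genes of the interferon system did not stand out at day 8 alone. Ifih1, an RNA sensor, averaged 84.5 ± 13.7 CPM at D8 and 92.0 ± 5.51 CPM at D5. Ifitm3, which blocks viral entry, averaged 131 ± 23.7 CPM at D8 and 128 ± 5.39 CPM in ESC, so it was not peculiar to day 8. Of the interferons themselves, Ifnk, the gene for interferon kappa, was among the 15 largest differences. It had 28.7, 29.0 and 20.5 CPM in D8 libraries, 2.68, 2.32 and 3.86 CPM in D5 libraries and at most 0.269 CPM in the other 12. Families examined after the values were seen gave 7 of 9 tested PYHIN genes, which encode sensors of cytosolic DNA, 4 of 6 Ifit genes, 5 of 12 Oas genes and 4 of 10 Gbp genes as members. Many of these are paralogs, with the same limit on their counts. H2-T23, a nonclassical MHC class I gene, averaged 35.4 ± 3.31 CPM at D8 and 10.998 ± 1.30 CPM at D5.

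The promoters of 3 of these genes are shown because each holds the interferon-stimulated response element, searched as GAAANNGAAA on either strand in the 250 bases before the start. They are RefSeq sequences of GRCm38.p6 read 5′ to 3′ on the gene's strand, and capitals mark the matches. They lie at chr19:34640639-34640888 (plus strand, Ifit1), chr19:34583279-34583528 (plus strand, Ifit3) and chr12:26456453-26456702 (minus strand, Rsad2).

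Ifit1: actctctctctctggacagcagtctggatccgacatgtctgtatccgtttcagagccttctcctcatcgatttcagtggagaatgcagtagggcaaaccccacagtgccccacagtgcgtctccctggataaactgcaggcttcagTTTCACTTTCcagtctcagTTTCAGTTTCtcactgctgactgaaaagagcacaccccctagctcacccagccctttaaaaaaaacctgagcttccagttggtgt

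Ifit3: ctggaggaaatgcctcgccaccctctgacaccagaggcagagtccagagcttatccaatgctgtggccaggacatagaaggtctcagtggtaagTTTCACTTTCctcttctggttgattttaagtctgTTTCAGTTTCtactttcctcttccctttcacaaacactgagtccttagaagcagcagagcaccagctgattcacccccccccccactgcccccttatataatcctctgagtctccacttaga

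Rsad2: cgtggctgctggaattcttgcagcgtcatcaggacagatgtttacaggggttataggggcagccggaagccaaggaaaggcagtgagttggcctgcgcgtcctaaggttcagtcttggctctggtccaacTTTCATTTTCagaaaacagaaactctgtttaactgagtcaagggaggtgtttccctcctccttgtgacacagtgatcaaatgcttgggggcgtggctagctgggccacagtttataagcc

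In Ifit1 the matches began 104 and 85 bases before the start, in Ifit3 156 and 122 bases before it and in Rsad2 120 bases before it. Of the 14 interferon members, 10 had RefSeq promoters, 12 in all, and 6 of the 12 (50%) held the element. It was present in 2.98% of all 32851 promoters and in 5.05% of the 732 promoters found for 591 of the 776 higher genes. Interferon-stimulated genes often carry this element, and listed genes outside the set were not counted separately. The share among the members is therefore not tied to day 8. A match describes the letters in this window and does not show a bound site.

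Genes of replication-dependent histones were in the higher set, although no listed gene of S phase and mitosis was. These histones are made in S phase from messages that normally lack a poly(A) tail, and the libraries were made from rRNA-depleted total RNA. Of 22 tested histone genes on the list, 8 were in the higher set, against 4.42% of all tested genes. At D8 7 were called higher and 3 lower than in EpiSC (42.4% and 34.5% of all tested genes). Against D3 18 were higher and 0 lower (35.6% and 31.9%), and against D5 9 and 0 (25.1% and 22%). Against rES 8 were higher and 0 lower (38.4% and 32.7%), and against ESC 11 and 1 (38.8% and 32.4%). The linker histone gene H1f2 had 195, 179 and 175 CPM in D8 libraries, 39.3, 37.4 and 33.3 CPM in D5 libraries, 12.4 to 15.3 CPM in D3 libraries and 10.4 CPM or less in the other 9. H2bc4 had 165, 159 and 82.9 CPM at D8 and 24.0, 33.2 and 33.2 CPM at D5, and at most 11.3 CPM elsewhere. H2bc6 averaged 7.41 ± 0.930 CPM at D8 and 2.13 ± 0.402 CPM at D5 (SD, n = 3 each). The D8 libraries exceeded all others for each of the 3. Summed over the list, histone counts came to 386, 361 and 286 CPM in D8 libraries and to 72.5 to 82.1 CPM in D5 libraries. The sum was 20.2 to 31.6 CPM in the EpiSC, D3, rES and ESC libraries. Most of it at D8 and at D5 came from H1f2 and H2bc4, so it does not describe the list as a whole. Selecting every canonical histone symbol after the values were seen gave 22 higher and 1 lower member of 61 tested. Histone genes are near-identical copies, and their separate counts are uncertain. Mcm2, a subunit of the replicative helicase, averaged 178 ± 35.5 CPM at D8 and 177 ± 12.5 CPM at D5, against 697 ± 19.1 CPM in rES.

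Genes of lipid handling were a further group, with 6 of 19 tested genes for fatty acid uptake and storage in the set. Vldlr, a receptor for triglyceride-rich lipoproteins, had 221, 217 and 159 CPM in D8 libraries, 51.3, 44.5 and 48.8 CPM in D5 libraries and 81.6, 77.2 and 82.0 CPM in EpiSC libraries, its nearest group. It was at most 10.7 CPM in the 9 D3, rES and ESC libraries. Plin2, which coats lipid droplets, averaged 205 ± 16.8 CPM at D8 and 101 ± 2.58 CPM at D5, and its relative Plin4 averaged 48.2 ± 6.49 CPM at D8 and 14.1 ± 0.490 CPM at D5. Slc27a6, a fatty acid transport protein, had 10.6, 9.91 and 7.75 CPM at D8, against 0.425 to 0.690 CPM in D5 libraries and 0.930 to 2.40 CPM in D3 libraries. Vldlr and Slc27a6 were the exceptions in this group to the usual order, since D5 was not the highest of their other groups. Of 31 tested genes of fatty acid oxidation 1 was a member, Acox2. On that list 15 genes were called higher and 6 lower at D8 than at D5, against 25.1% and 22% of all tested genes. Compared with rES, 22 were higher and 2 lower, against 38.4% and 32.7%. Cpt1a, which loads fatty acids into mitochondria, averaged 90.2 ± 18.6 CPM at D8, 42.2 ± 1.44 CPM at D5 and 299.8 ± 11.7 CPM in rES.

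Lysosomal and transport genes included several of the most highly counted members. Ctsb, the lysosomal protease cathepsin B, had 2256, 2012 and 1495 CPM in D8 libraries, 897, 973 and 958 CPM in D5 libraries and 301 to 320.1 CPM in D3 libraries. Its EpiSC libraries were lowest, at 56.1 to 59.9 CPM. Of 24 lysosomal genes tested 2 were members, Ctsb among them. Slc40a1, the iron exporter ferroportin, had 1381, 1237 and 924 CPM at D8, 567, 534 and 564 CPM at D5 and 65.4 CPM or less elsewhere. Of 18 iron and heme genes tested the other member was Cp, a ferroxidase, with 1.40 ± 0.562 CPM at D8 and 0.609 ± 0.201 CPM at D3 and libraries that overlapped. Tfrc, the transferrin receptor that brings iron in, was not a member, with 1981 ± 344 CPM at D8 and 1152 ± 100.3 CPM at D5. Among transporters, the carnitine carriers Slc22a5 and Slc22a4 averaged 66.6 ± 12.9 and 8.67 ± 0.488 CPM at D8 and 33.0 ± 0.942 and 3.97 ± 0.782 CPM at D5. Slc7a9, a cystine transporter, averaged 7.90 ± 0.680 CPM at D8 and 1.49 ± 0.175 CPM at D5 (SD, n = 3 each).

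The 5 highest members by count were Gjb2, Ctsb, Slc40a1, Arhgef6 and Tgm2. Tgm2, the cross-linking enzyme transglutaminase 2, had 1323, 1209.7 and 983 CPM in D8 libraries, 459, 391.6 and 412 CPM in D5 libraries and at most 50.1 CPM elsewhere. Arhgef6, an activator of Rac GTPases, had 1454, 1368 and 949 CPM at D8, 405, 395 and 442 CPM at D5 and at most 6.04 CPM elsewhere. For both genes D8 replicate 3 was the lowest D8 library and still more than the highest D5 library.

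Genes of extraembryonic endoderm contributed 6 of 21 tested, against 4.42% of all tested genes. The list summed to 2439, 2285 and 2121 CPM in D8 libraries and 1908, 1969 and 2166 CPM in D3 libraries, which overlapped. In D5 libraries it summed to 1270 to 1314 CPM. Of the 21, 11 were called higher and 1 lower at D8 than at D3 (35.6% and 31.9% of all tested genes). Against D5 14 were higher and 0 lower (25.1% and 22%). Lama1, a laminin of basement membranes, had 254, 196 and 228 CPM in D8 libraries, 101, 97.8 and 93.0 CPM in D5 libraries and 73.1 to 80.2 CPM in rES libraries. Dab2, an endocytic adaptor, averaged 36.2 ± 3.996 CPM at D8 and 13.99 ± 0.575 CPM at D5, and Trf, the iron carrier transferrin, averaged 18.2 ± 1.45 CPM at D8, 3.22 ± 0.761 CPM at D5 and 4.82 ± 1.45 CPM at D3. The homeobox gene Rhox5 had 47.0, 45.5 and 45.2 CPM at D8 but varied within other groups, with 10.4, 4.95 and 27.2 CPM in D5 libraries and 25.6, 5.97 and 25.1 CPM in rES libraries. Its relative Rhox12 had 7.37, 9.29 and 6.02 CPM at D8, against 0.540 to 0.817 CPM at D5 and at most 0.242 CPM elsewhere. Lama1, Dab2, Trf and both Rhox genes had D8 libraries above all others.

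Markers of other cell types that such cultures could hold were measured as well. Of 13 tested fibroblast markers, Lum and Dcn, which encode small proteoglycans of the matrix, were in the set. Lum had 64.5, 169.8 and 93.1 CPM in D8 libraries and 34.8, 37.6 and 37.1 CPM in D5 libraries, and Dcn had 38.0, 81.7 and 49.4 CPM in D8 libraries and 17.2, 17.5 and 18.1 CPM in D5 libraries. Both were highest in D8 replicate 2. The 13 markers summed to 1049.7, 1750.1 and 1245 CPM in D8 libraries and 839 to 926 CPM in D5 libraries. The sum was 604 to 779 CPM in D3 libraries and 151 to 193 CPM in ESC libraries. It was at most 61.5 CPM in EpiSC and rES libraries. Of the 13, 6 were called higher and 7 lower at D8 than at D3, and 5 higher and 1 lower than at D5. Against EpiSC 9 were higher and 1 lower, against rES 9 and 0, and against ESC 8 and 0. The shares of all tested genes are given below. Postn, another matrix gene of the list, averaged 163 ± 46.2 CPM at D8 and 122 ± 13.5 CPM at D5. The part of fibroblast-derived RNA in the set was not tested. Of 11 tested macrophage and leukocyte markers only Csf1r was in the set. This receptor for colony-stimulating factor 1, which trophoblast also carries, had 249, 229 and 176 CPM at D8, 72.1, 78.0 and 69.2 CPM at D5 and at most 17.7 CPM elsewhere. The list summed to 292, 262 and 208 CPM in D8 libraries, 101 to 112 CPM in D5 libraries and 6 to 25.5 CPM in the other 12. Csf1r made up most of that sum at D8 and at D5. Of the 11, 7 were called higher and 0 lower at D8 than in EpiSC, 3 higher and 0 lower than at D3, and 1 higher and 1 lower than at D5. Against rES 5 were higher and 1 lower, and against ESC 5 higher and 0 lower. Of all tested genes, 42.4% were called higher and 34.5% lower than in EpiSC, and 35.6% and 31.9% than at D3. The shares were 25.1% and 22% against D5, 38.4% and 32.7% against rES, and 38.8% and 32.4% against ESC. Cd68 averaged 20.7 ± 3.75 CPM at D8 and 17.8 ± 1.54 CPM at D5, and Fcgr3 11.6 ± 3.10 CPM at D8 and 9.48 ± 0.590 CPM at D5 (SD, n = 3 each). Ptprc averaged 0.0238 CPM and Adgre1 0.0367 CPM at D8, and Fcer1g was at 0. The part of macrophage RNA in the set was not tested.

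Cxcr2, Sele and Jaml, which encode surface proteins, had some of the 15 largest differences. Cxcr2, a chemokine receptor best known on neutrophils, had 41.5, 41.1 and 32.6 CPM in D8 libraries, 1.80, 2.16 and 1.47 CPM in D5 libraries and at most 0.440 CPM elsewhere. Sele, the adhesion molecule E-selectin, averaged 19.7 ± 3.48 CPM at D8 and 1.41 ± 0.590 CPM at D5. Jaml, a junctional adhesion molecule, averaged 18.5 ± 3.53 CPM at D8 and 1.31 ± 0.160 CPM at D5. Il1rn, the antagonist of the interleukin 1 receptor, averaged 3.47 ± 0.560 CPM at D8 and 0.377 ± 0.0711 CPM at D5 (SD, n = 3 each). Il1rn and Il1a were the members among 24 inflammatory and complement genes tested. The secreted protease gene Klk6 had 179, 154 and 101 CPM at D8 and 30.7, 32.6 and 31.1 CPM at D5. The membrane mucin gene Muc13 averaged 19.4 ± 4.38 CPM at D8 and 4.39 ± 0.932 CPM at D5, and the tight junction gene Cldn23 averaged 42.8 ± 2.97 CPM at D8 and 14.6 ± 1.499 CPM at D5. Of 12 mucin and secretory genes tested, 3 were members. Among 22 keratin and stratified epithelium genes 1 was a member, Klk6, and among 14 claudin and tight junction genes 1, against 4.42% of all tested genes. On the keratin list 3 genes were called higher and 11 lower at D8 than at D3 (35.6% and 31.9% of all tested genes). Against D5 3 were higher and 7 lower (25.1% and 22%), and against rES 17 and 0 (38.4% and 32.7%).

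Among members with a D8 mean of at least 5 CPM and an assigned name, the largest difference belonged to Doxl2, an amine oxidase relative. It had 17.5, 13.2 and 14.6 CPM in D8 libraries, 0.433, 0.229 and 0.540 CPM in D5 libraries and at most 0.114 CPM in the other 12, a log2 difference of 5.13 from D5. Fnd3c2 averaged 6.14 ± 2.42 CPM at D8 and 0.190 ± 0.116 CPM at D5. Hgd, an enzyme of tyrosine breakdown, averaged 6.22 ± 2.55 CPM at D8 and 0.771 ± 0.395 CPM at D5, and Fbln7, a matrix protein, averaged 5.07 ± 0.365 CPM at D8 and 0.286 ± 0.0995 CPM at D5 (SD, n = 3 each). For Fbln7 the nearest group was ESC.

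Of 24 imprinted genes tested 3 were in the higher set and 1 in the lower set, and of 16 cell cycle inhibitors and senescence genes 2 were in the higher set, Cdkn1c and Mmp13. Zim1, a maternally expressed zinc finger gene, had 67.9, 70.7 and 68.7 CPM in D8 libraries, 26.0, 22.1 and 28.3 CPM in D5 libraries and 2.72 CPM or less elsewhere. Cdkn1c, the imprinted inhibitor of cyclin-dependent kinases, had 23.2, 21.0 and 22.6 CPM at D8 and 10.7, 9.44 and 11.4 CPM at D5. Usp29, paternally expressed, was at the threshold. In contrast Mest, also paternally expressed, was in the lower set, with 11.9, 19.1 and 16.7 CPM at D8, 31.5, 37.3 and 33.3 CPM at D5 and 87.2 to 354 CPM in the other 12 libraries. Sesn1, a target of p53, averaged 179.6 ± 12.3 CPM at D8 and 78.6 ± 6.402 CPM at D5. It was the 1 member among 21 p53 targets tested, against 4.42% of all tested genes. Of the 21, 12 were called higher and 1 lower at D8 than at D5 (25.1% and 22% of all tested genes). Against rES 6 were higher and 13 lower (38.4% and 32.7%).

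**Figure D3:**
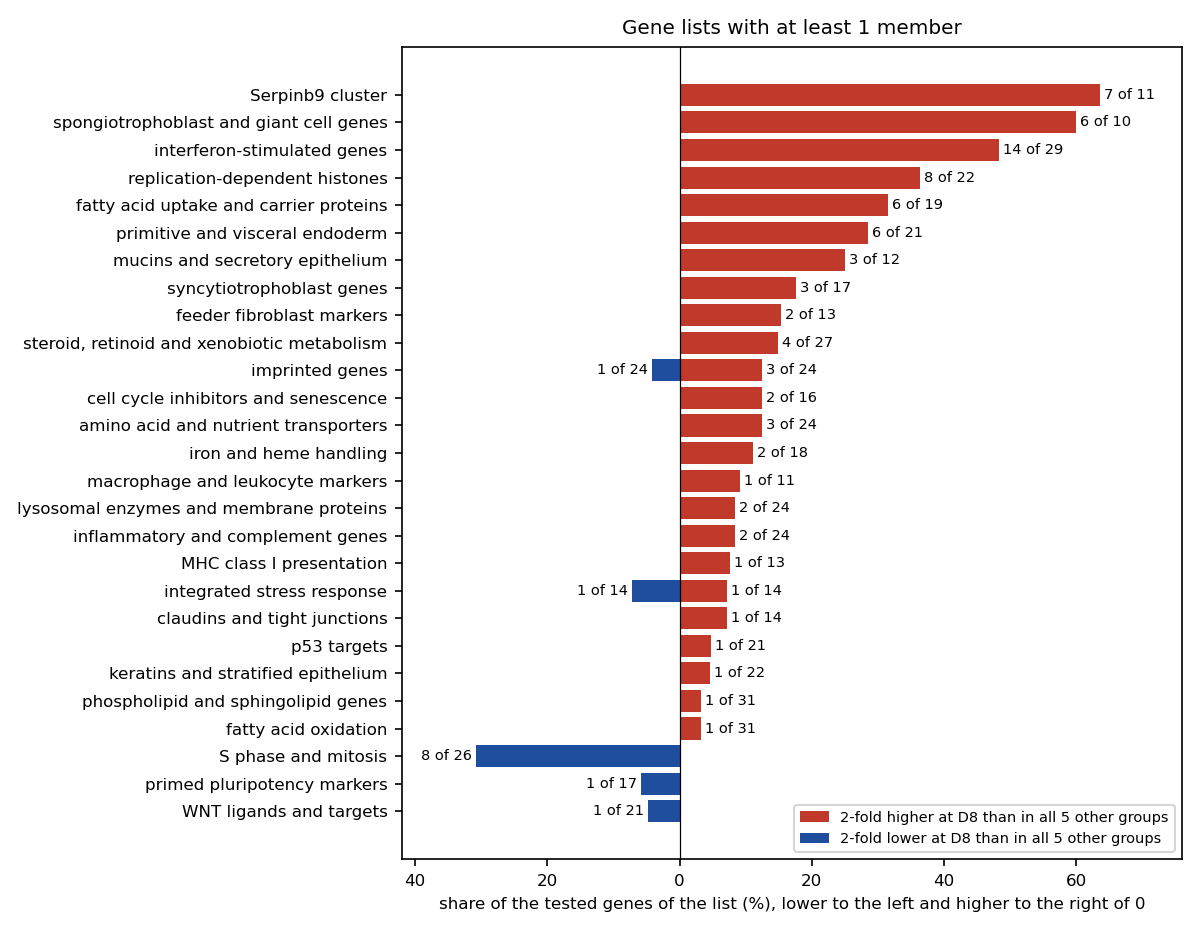
Share of the tested genes of each gene list that were members, in percent, with lower genes to the left of 0 and higher genes to the right. The Serpinb9 cluster, genes of spongiotrophoblast and giant cells and interferon-stimulated genes have the longest bars to the right, and S phase and mitosis the longest to the left. Of the 33 spongiotrophoblast and giant cell genes listed only 10 were tested. Genes counted almost only at D8 pass the filter through D8, so nothing is read from the length of that bar.

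Among the lists, genes of cell division had the most members in the lower set. Of 26 tested genes of S phase and mitosis, 8 were in the lower set and 0 in the higher. All 26 were called lower at D8 than in rES (32.7% of all tested genes) and in ESC (32.4%), 24 lower than in EpiSC (34.5%), and 19 lower and 1 higher than at D5 (22% lower and 25.1% higher). The 8 members were chosen on the same differences, so these tallies too are only a description. Rrm2, the regulated subunit of ribonucleotide reductase, had 85.9, 91.8 and 123 CPM in D8 libraries, 257, 243 and 239 CPM in D5 libraries and 323 CPM or more in the other 12. Ccna2, cyclin A2, had 76.9, 85.6 and 101 CPM at D8, 211, 215 and 213 CPM at D5 and 212 CPM or more elsewhere. Plk1, a kinase of mitotic entry, had 38.0, 36.5 and 70.3 CPM at D8, 132, 109.5 and 106 CPM at D5 and 154 CPM or more elsewhere. Cdc20, an activator of the anaphase-promoting complex, had 74.3, 73.4 and 101 CPM at D8, 193, 177 and 175 CPM at D5 and 190.0 CPM or more elsewhere. D8 libraries were the lowest 3 of 18 for each, and D8 replicate 3 was the highest of them. Ccnb2 (28.8 ± 5.07 CPM at D8 and 60.8 ± 6.85 CPM at D5), Aurkb (22.4 ± 7.03 CPM at D8 and 50.1 ± 1.37 CPM at D5) and Ccne1 (40.2 ± 6.67 CPM at D8 and 82.6 ± 0.860 CPM at D5) were similar. Cdc45, a helicase cofactor, averaged 5.45 ± 0.488 CPM at D8, and rES replicate 3 was at 5.34 CPM, below D8 replicates 1 and 2, so its groups overlapped. Not every proliferation gene was in the set. Top2a, the topoisomerase of mitotic chromosomes, averaged 202 ± 43.8 CPM at D8 and 315 ± 6.45 CPM at D5.

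The 10 largest lower differences among well-measured genes included other spindle genes. Gpsm2, which orients the spindle, had 11.6, 11.6 and 13.01 CPM in D8 libraries, 43.9, 45.4 and 41.9 CPM in D5 libraries and at least 33.6 CPM elsewhere. Kif14, a kinesin of cytokinesis, had 13.3, 14.3 and 21.1 CPM at D8, 46.3, 46.0 and 48.3 CPM at D5 and at least 47.5 CPM elsewhere. Knstrn, a kinetochore adaptor, averaged 14.9 ± 2.499 CPM at D8 and 43.0 ± 0.565 CPM at D5. Mtfr2, linked to mitochondrial fission, averaged 3.99 ± 0.702 CPM at D8, against group means of 10.4 to 17.6 CPM elsewhere. Pclaf, a partner of the replication clamp, averaged 5.14 ± 0.360 CPM at D8, 14.04 ± 0.773 CPM at D5 and 296 ± 22.8 CPM in EpiSC, and Pimreg averaged 1.82 ± 0.232 CPM at D8, 5.61 ± 0.649 CPM at D5 and 117 ± 7.24 CPM in EpiSC. E2f2, a transcription factor of S phase genes, averaged 2.22 ± 0.504 CPM at D8 and 6.56 ± 0.390 CPM at D5. Parpbp, which restrains homologous recombination, averaged 7.17 ± 0.323 CPM at D8 and 22.4 ± 1.52 CPM at D5 (SD, n = 3 each). Zfp473 had the largest lower difference of the 10, with 5.15 ± 1.17 CPM at D8 and 16.0 ± 1.17 CPM at D5.

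Lower members of other lists included Lef1 and Phgdh. Lef1, a transcription factor of the WNT pathway, had 2.05, 3.29 and 2.499 CPM in D8 libraries, 7.48, 7.23 and 7.10 CPM in D5 libraries and 108 to 116 CPM in EpiSC libraries. ESC libraries stood at 6.26 to 8.66 CPM. Phgdh, the first enzyme of serine synthesis, averaged 43.1 ± 8.81 CPM at D8, 87.2 ± 7.64 CPM at D5 and 576 ± 3.29 CPM in EpiSC (SD, n = 3 each). For Lef1 and Phgdh the D8 libraries were the lowest 3 of 18.

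**Figure D4:**
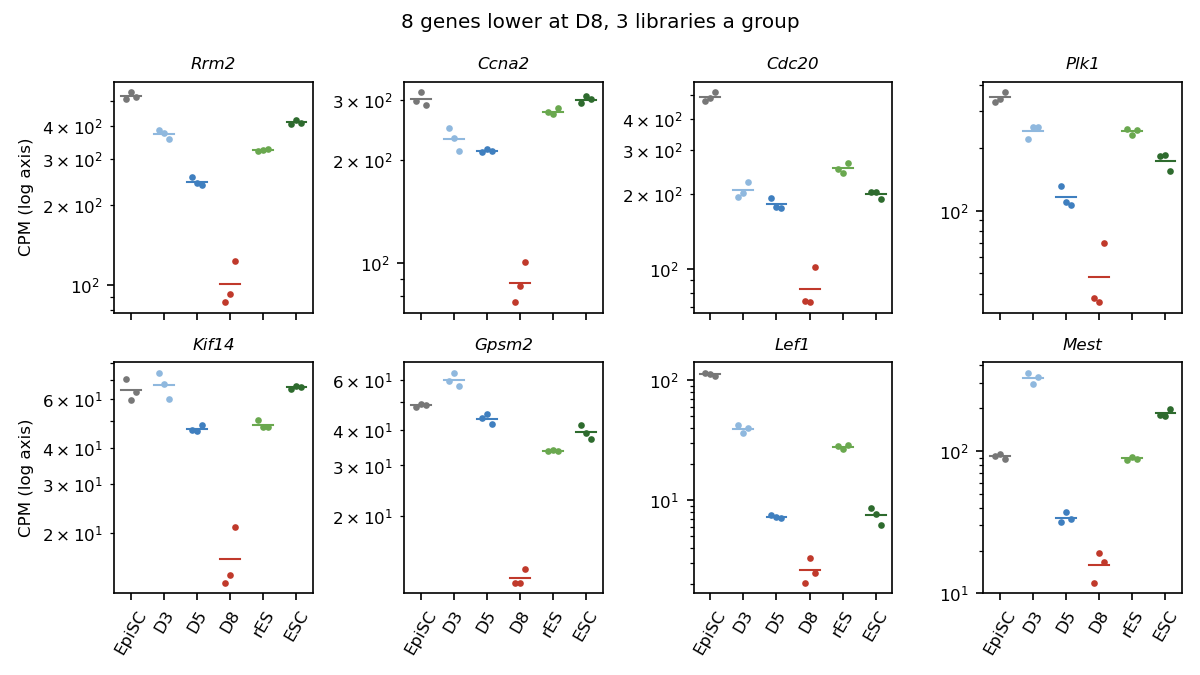
Level of 8 lower genes in each library, with groups in the order EpiSC, D3, D5, D8, rES and ESC on the horizontal axis and CPM on a log vertical axis. Points are libraries and lines are group means; in every panel the 3 D8 libraries are the lowest.

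The promoters of Ccnb2 and Cdc20 are shown because promoters of mitotic genes are known for repeated CCAAT boxes, which bind NF-Y. Capitals mark CCAAT on either strand within the 250 bases before the RefSeq start on GRCm38.p6, again on the gene's strand. They lie at chr9:70421555-70421804 (minus strand, Ccnb2) and chr4:118437344-118437593 (minus strand, Cdc20).

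Ccnb2: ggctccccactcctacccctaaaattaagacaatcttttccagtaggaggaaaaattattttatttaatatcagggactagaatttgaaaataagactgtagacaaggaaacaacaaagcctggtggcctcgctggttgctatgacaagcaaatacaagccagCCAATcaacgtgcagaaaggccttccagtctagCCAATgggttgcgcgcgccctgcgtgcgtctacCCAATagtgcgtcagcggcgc

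Cdc20: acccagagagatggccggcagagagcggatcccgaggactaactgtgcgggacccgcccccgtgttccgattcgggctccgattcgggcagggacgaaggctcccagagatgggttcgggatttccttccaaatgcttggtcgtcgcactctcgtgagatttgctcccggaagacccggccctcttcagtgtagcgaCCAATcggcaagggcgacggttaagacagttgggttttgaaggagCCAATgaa

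The matches began 87, 54 and 21 bases before the start in Ccnb2 and 53 and 8 bases before it in Cdc20. Of the 8 S phase and mitosis members, 6 had a RefSeq promoter, and 5 of these 6 (83.3%) held a CCAAT box. The share was 50.8% of 122 promoters of lower genes, 31.8% of promoters of higher genes and 33.8% of all promoters. A second element of mitotic promoters, the cell cycle homology region, was searched as TTTGAA on either strand. It was found in 3 of the same 6 promoters, in 19.7% of those of lower genes and in 16.0% of all promoters. Listed genes of S phase and mitosis outside the set were not counted separately, so neither share is tied to day 8. A TTTGAA match can share bases with a GAAANNGAAA match, but none of the 12 promoters of interferon members held TTTGAA.

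Comparisons among the other groups show how these genes stood without the D8 libraries. They are not independent of the choice of genes, because each of the other 5 groups was used in it. Of the 776 higher genes, 484 (62.4%) were called higher at D5 than in EpiSC, against 37.7% of all tested genes. By the same test 379 (48.8%) were higher at D5 than at D3, against 29.9%, and 299 (38.5%) were higher at D3 than in EpiSC, against 34.1%. A further 72 were lower at D3 than in EpiSC, against 30.2% of all tested genes. Between rES and ESC, 94 (12.1%) were higher and 64 (8.25%) lower in rES, against 15.6% and 17.9%. Between ESC and EpiSC, 193 (24.9%) were higher and 137 (17.7%) lower in ESC, against 31.2% and 36.1%. Genes that passed the filter on low counts only through D8 are part of these shares. Among the 597 higher genes that passed it without D8, 435 (72.9%) were higher at D5 than in EpiSC. In this subset 346 (58%) were higher at D5 than at D3. At D3, 290 (48.6%) were higher and 71 (11.9%) lower than in EpiSC. In rES, 90 (15.1%) were higher and 63 (10.6%) lower than in ESC. In ESC, 185 (31%) were higher and 136 (22.8%) lower than in EpiSC. Of the 134 lower genes, 93 (69.4%) were called lower at D5 than in EpiSC, against 34.3%, and 73 (54.5%) lower at D5 than at D3, against 29.6%.

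Single genes differed in when they moved before day 8. By edgeR's quasi-likelihood test with Benjamini-Hochberg adjustment, Gjb2 was higher at D5 than in EpiSC by a log2 difference of 8.22 ± 0.34 (SE; adjusted p = 2.73e-13). Rsad2 was higher by 8.58 ± 0.36 (adjusted p = 2.36e-13), Serpinb9e by 8.71 ± 0.52 (adjusted p = 1.47e-09) and Ctsb by 4.03 ± 0.11 (adjusted p = 1.31e-15). Other higher genes showed little or no such increase from EpiSC to D5, although Hsd11b2 and Slc27a6 had higher means at D3. Hsd11b2 averaged 9.03 CPM at D3 and 3.24 CPM in EpiSC, and Slc27a6 averaged 1.90 CPM at D3 and 0.618 CPM in EpiSC. Hsd11b2 was higher at D5 than in EpiSC by 0.84 ± 0.23 (edgeR adjusted p = 0.00364) but lower at D5 than at D3, with a log2 difference of -0.63 (adjusted p = 0.0231). Slc27a6 did not pass the test between D5 and EpiSC, with a log2 difference of -0.14 (edgeR adjusted p = 0.759), and Vldlr was lower at D5 than in EpiSC, with -0.74 (adjusted p = 0.000149). Among lower genes, Rrm2 was lower at D5 than in EpiSC, with -1.08 ± 0.09 (edgeR adjusted p = 6.86e-09), and Lef1 was lower, with -3.94 (adjusted p = 3.53e-14). Gpsm2 (-0.16, edgeR adjusted p = 0.0566) and Mtfr2 (0.12, adjusted p = 0.528) did not pass the test.

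The 3 D8 libraries were not alike for these genes. Among the 776 higher genes D8 replicate 1 was the highest of the 3 for 417 and D8 replicate 3 the lowest for 415. Among the 134 lower genes D8 replicate 3 was the highest for 76 and D8 replicate 1 the lowest for 95. In D8 replicate 3 the median gene of the naive pluripotency list was 0.70 higher on the log2 scale than the mean of the other 2 D8 libraries, and that of the shared pluripotency list 0.80 higher. The S phase and mitosis list was 0.45 higher there, the interferon list 0.29 lower (log2 difference -0.29) and the Serpinb9 list 0.49 lower (log2 difference -0.49).

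Choosing the genes without 1 of the D8 libraries and looking at that library afterwards gave a check that the choice did not use, although the other groups' libraries were shared. Without D8 replicate 1 there were 812 higher genes, and 79.7% of them were at least 2-fold above every other group in the left-out library. The share was 81.0% of 810 genes for D8 replicate 2 and 67.5% of 889 genes for D8 replicate 3. For lower genes the shares were 77.6% of 116, 61.6% of 151 and 31.0% of 229. Genes that did not pass the filter on low counts with all libraries were not looked at and count as not repeated. This lowers the shares. The left-out library was judged on CPM without the prior count used in choosing the genes, a looser rule that can raise them. The shares are therefore not limits in either direction. For D8 replicates 1 to 3 the genes repeated were 647, 656 and 600 in the higher direction and 90, 93 and 71 in the lower. D8 replicate 3 thus repeated fewest of the differences in both directions.

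**Figure D5:**
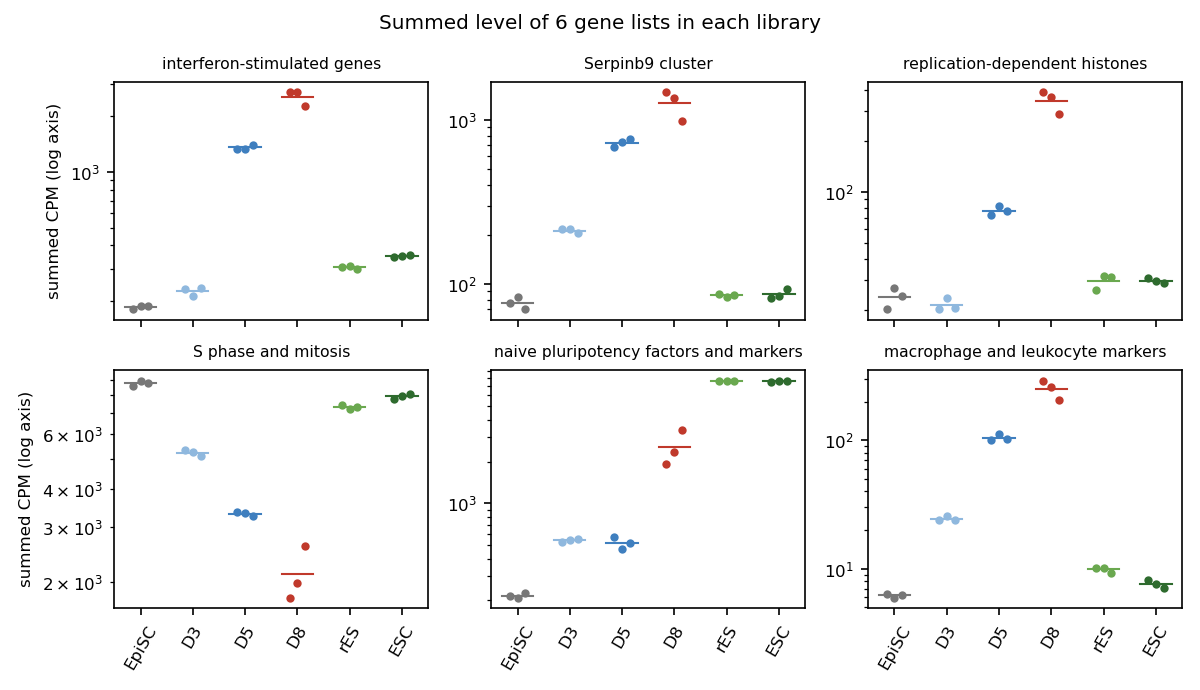
Summed CPM of 6 gene lists in each library, with groups in the order EpiSC, D3, D5, D8, rES and ESC on the horizontal axis. Points are libraries. The sums of interferon-stimulated genes, the Serpinb9 cluster, histones and the macrophage list are highest at D8. S phase and mitosis genes are lowest there, and naive genes lie between D5 and rES. At D8 most of the macrophage sum is Csf1r, and most of the histone sum is H1f2 and H2bc4.

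Many lists had no member, pluripotency among them. The 22 naive genes held 0, because their D8 levels were between those of D5 and of the naive lines. Of the 22, 21 were called higher at D8 than at D5 (25.1% of all tested genes) and 20 lower than in rES (32.7%). Nanog had 207, 283 and 346 CPM in D8 libraries, 13.8 to 19.4 CPM in D5 libraries and 825 to 835 CPM in rES libraries. Zfp42 had 40.3, 56.0 and 87.3 CPM at D8, 2.87 to 3.93 CPM at D5 and 261 to 269 CPM in rES. Pou5f1 had 75.2, 59.2 and 145 CPM at D8 and 331 to 347 CPM in rES. Within D8 all 3 genes were highest in replicate 3, the library that was lowest for most higher genes. The naive list summed to 1925, 2345 and 3393 CPM in D8 replicates 1 to 3, and the interferon list to 2698, 2699.8 and 2277 CPM. Shared pluripotency genes (11 tested), germline genes (16) and genes of 2-cell-like cells (10) also had 0 members.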

How the data were processed

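RNA from 18 libraries was measured, 3 in each of 6 groups taken from the labels. Per the submitters' processing notes, the tools were bcl2fastq, Trim Galore for trimming and HISAT2 for alignment, with mm10 as the genome. The authors' deposited expected counts are whole numbers for each symbol in each library, with no scaling. Which counting program, annotation and strand setting were used is not given in the sources used here. Overlapping, antisense and near-identical genes may be miscounted. Low counts bunched at 4 and 8: in the median library a count of 3 was held by 157 genes, of 4 by 314.5 and of 5 by 105.5. No count was altered and no library left out.

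All 18 libraries entered 1 fit in edgeR 4.0.16 with limma 3.58.1 (R 4.3.3): filterByExpr, TMM scaling, quasi-likelihood F tests, Benjamini-Hochberg adjustment over 17545 genes, a threshold of 0.05 and log2 differences with a prior count of 2. The common biological coefficient of variation was 0.167. DESeq2 1.42.0 was an alternative. The steps were tested on simulated data. Replicate numbers did not pair libraries across groups.

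The members and gene lists were chosen with earlier results of these data known. Named genes were the 15 largest higher differences among members with a D8 mean of at least 5 CPM and no overlap, the 5 highest D8 levels, the 10 largest lower differences, up to 4 members of each list, the 2 genes on each side of the threshold in each direction and 6 landmark genes (Nanog, Zfp42, Pou5f1, Cpt1a, Cdx2 and Krt7). Other named genes, and the families, were chosen after their values were seen. A few genes withheld for evaluation are not reported here.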

Additional observations from a re-analysis of the deposited data

How the results depend on the processing

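The set was recomputed under other settings. The 776 higher and 134 lower genes became 823 and 114 with DESeq2's size factors in place of TMM, 790 and 128 with a replicate block, 811 and 162 with a smaller prior count, 874 and 146 with DESeq2, and 814 and 164 from ratios of mean CPM. Of the main members, 761 and 126 were shared with the replicate block and 773 and 115 with DESeq2. Without a filter on low counts they were 1132 and 134, and with counts divided by 4 and rounded 535 and 89. Requiring an adjusted p under 0.05 in all 5 comparisons left 415 and 102, and a 4-fold threshold left 226 and 6. Leaving out 1 library at a time gave 810 to 889 higher and 116 to 229 lower genes, the 229 without D8 replicate 3. Fewer libraries also loosen the filter, which requires fewer of them. Same-numbered libraries of different groups did not deviate together (45 pairs, median correlation 0.00036, -0.282 to 0.245), and 5 of 18 libraries correlated best with their own number. Of the lower genes, 1 was called higher at D5 than in EpiSC, 1 to 3 with a library left out. At D5 against D3 it was 2, then 0 to 2, and in rES against ESC 5, then 3 to 5. For the genes named by rule, 387 of 401 differences under other settings moved by less than the SD of the D8 libraries on the log2 scale. With 1 library left out it was 1765 of 1818. The sign reversed for 0, which was nearly fixed in advance for members, chosen as at least 2-fold different. Genes named after their values were seen were not part of this check. Genes with few counts are limited by depth and by the bunching of low counts.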

Other observations

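Other members with high levels, picked after their values were seen, came from several pathways. Txnip, an inhibitor of thioredoxin that responds to glucose, had 922, 909 and 795 CPM in D8 libraries, 256 to 261 CPM in D5 libraries and 255 CPM or less in the other 12. Gm2a, the activator protein for breakdown of the ganglioside GM2 in lysosomes, had 856, 818 and 647 CPM in D8 libraries, 276 to 291 CPM in D5 libraries and at most 52.6 CPM elsewhere. The forkhead factor gene Foxo4 averaged 562 ± 41.3 CPM at D8 and 231 ± 6.46 CPM at D5 (SD, n = 3 each). Epas1, the hypoxia-inducible factor HIF-2 alpha, had 215, 196 and 201 CPM at D8, against group means of 6.79 to 60.6 CPM elsewhere. Folr1, a folate receptor, averaged 184 ± 21.7 CPM at D8 and 77.5 ± 5.05 CPM in ESC, its nearest group. Kitl, the ligand of the KIT receptor, had 138, 139 and 96.7 CPM at D8, 17.4 to 25.8 CPM at D5 and 27.7 to 36.9 CPM at D3. The D8 libraries were the highest 3 of 18 for each of these genes.

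Of the 6 tested collagen IV genes, which encode the basement membrane network, 3 were members. Col4a5 had 61.5, 96.1 and 75.9 CPM in D8 libraries, 21.2 to 25.3 CPM in D5 libraries and 14.8 CPM or less elsewhere. Col4a6 averaged 10.7 ± 2.06 CPM at D8 and 3.08 ± 0.289 CPM at D5 (SD, n = 3 each). Among unnamed gene models, the Y-linked Gm21708 had 11.4, 8.90 and 12.4 CPM in D8 libraries and counts in only 1 of the other 15, rES replicate 1 at 0.795 CPM. It belongs to a multicopy family, so its count is uncertain.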
